A study of Mus musculus with 6 samples.

Results

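Reference genes are the transcripts against which other transcripts are normalised, and they can serve across tissues only where their own level is the same in each. The 10 common reference genes Actb, Actg1, Ppia, Hprt, Tbp, Gusb, Pgk1, Ywhaz, Polr2a and Eef2 were followed from brown into white fat. They were chosen by name, as the probe sets whose gene symbol in the platform annotation is 1 of the 10. In that annotation 18193 genes had a probe set assigned to them alone, and 9 of the 10 reference genes were among them, with 22 probe sets. The probe set of Ppia, the cytosolic cyclophilin, is assigned to several genes, so no value is given for it. Of the 22 probe sets, 19 had a present call on 3 arrays or more and were tested, and each of the 9 genes kept at least 1.

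The arrays hold brown fat from between the shoulder blades (interscapular) and white fat from around the epididymis (epididymal), dissected from 3 mice, with 3 arrays for each tissue. All mice were male C57BL/6, aged 10 to 12 weeks, untreated and kept at ambient temperature. Each array read the total RNA of 1 whole tissue sample, labelled with biotin from an oligo-dT primer, and the labels do not say which brown and white arrays came from the same mouse. Each kind of fat came from 1 depot, so an effect of the depot and an effect of the kind of fat cannot be told apart.

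Brown fat burns fuel in mitochondria to make heat, whereas white fat stores triglyceride and secretes hormones such as leptin. The common reference genes come from separate housekeeping systems, namely the actin cytoskeleton, 14-3-3 signalling adaptors, purine salvage, the lysosome, RNA polymerase II transcription, translation elongation and glycolysis. Housekeeping genes are needed by nearly every cell, but the amount of each system differs between cell types. A reference gene can therefore be present everywhere and still differ between tissues.

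The promoters of 7 of the 9 genes were found in RefSeq (build GRCm38.p6), and those of Eef2, Actg1 and Pgk1 are printed. Eef2 is the gene whose difference stayed small under 3 scalings, and Actg1 is a gene lower in brown fat. Pgk1 is the gene called higher in brown fat under every scaling. Each printed promoter is the stretch of 120 bases that ends just before the annotated start, 5′ to 3′ on the gene's strand. Capitals mark the TATA motif (TATAAA) or the CArG box, the site of serum response factor.
Eef2, chr10:81176511-81176630, plus strand: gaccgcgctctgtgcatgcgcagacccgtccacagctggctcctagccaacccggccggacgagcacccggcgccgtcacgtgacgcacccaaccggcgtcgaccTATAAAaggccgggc
Actg1, chr11:120348496-120348615, minus strand: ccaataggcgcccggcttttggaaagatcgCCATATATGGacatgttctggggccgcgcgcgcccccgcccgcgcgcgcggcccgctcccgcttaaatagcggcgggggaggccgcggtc
Pgk1, chrX:106186980-106187099, plus strand: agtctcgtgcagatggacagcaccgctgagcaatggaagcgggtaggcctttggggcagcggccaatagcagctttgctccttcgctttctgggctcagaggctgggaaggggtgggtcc
In the 250 bases before the start, searched on both strands, the TATA motif was found in 2 of the 7 promoters (Eef2, 15 bases before the start, and Polr2a, 33 bases before) and in 12.37% of 32851 promoters. The GC box (GGGCGG) was found in 5 of the 7 and in 32.74% of all promoters, and the CCAAT box (CCAAT) in 2 of the 7 and in 33.85%. The CArG box was found in Actg1, 90 bases before the start, and in 1.467% of all promoters. Pgk1 held 1 CCAAT box, 58 bases before the start, and 1 GC box, 176 bases before. No match of 1 motif overlapped a match of another in these promoters, and a match is a description of the sequence only.

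The arrays were grouped by their labels, and the markers of each tissue lay on its side. All 12 brown adipocyte markers were higher in the brown arrays, among them Ucp1, the uncoupling protein of brown fat, whose quantile-scaled signal was 12942 ± 267 (SD, n = 3) in brown and 26.1 ± 31.7 (n = 3) in white. Of the 12, 6 were called absent on all white arrays, Ucp1 among them, so these entered the test through the brown arrays alone. All 9 white adipocyte markers tested were higher in the white arrays, with Lep, which encodes leptin, at 54.2 ± 19.2 in brown, where 1 of 3 arrays called it present, and 1743 ± 16.5 in white. Agt, Tcf21 and Trim14 were called absent on all brown arrays and entered the test through the white arrays alone. The arrays of the tissues also differed as a whole. Between 35.6% and 37.5% of probe sets were called present on the brown arrays and between 45.2% and 45.8% on the white ones. The median deposited signal was 37.6 to 39.4 on the brown arrays and 52.1 to 52.5 on the white ones, whereas the mean log2 signal of the spike-in hybridisation controls overlapped, at 10.24 to 10.40 and 10.13 to 10.46. Because of this, the scaling decides what counts as no difference. Over all tested probe sets the median difference, brown minus white on the log2 scale, was -0.06 after quantile scaling, -0.53 in the deposited signals, -0.08 after median scaling over all probe sets and -0.53 after scaling to the spike-in controls.

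All differences below are brown minus white on the log2 scale with their 95% interval and n = 3 arrays per tissue, fitted with limma over every tested probe set. For each gene the probe set with the highest mean signal stands for it, and its p-value is adjusted with the Benjamini-Hochberg method over 10264 genes at a threshold of 0.05. Quantile scaling is the main setting, and the deposited signals and median scaling stand beside it. As a p-value above the threshold does not show that a gene is the same in both tissues, a gene is described as stable only where its whole interval lay within 0.5 of 0, a fold of 1.41 in either direction.

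Each of the 9 reference genes passed the test under at least 1 of the 3 scalings. After quantile scaling all 9 were called, 7 higher in white (Actb, Actg1, Hprt, Gusb, Ywhaz, Polr2a and Eef2) and 2 higher in brown (Tbp and Pgk1), beside 61% of all genes. In the deposited signals 8 of 9 were called, beside 71.1% of all genes, and after median scaling 7 of 9, beside 60.5%. The tissues differed at most genes, so these shares are read against a high background. The median difference of the 9 genes was -0.66 after quantile scaling, -1.11 in the deposited signals and -0.66 after median scaling, and that of all genes was -0.04, -0.50 and -0.05. The split of all called genes moved with the scaling too, with 2895 higher in brown and 3361 higher in white after quantile scaling and 1535 and 5760 in the deposited signals.

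The interval of Eef2 lay within 0.5 under quantile, deposited and median scaling. After quantile scaling it was the only reference gene to do so, 1 of 9 beside 18% of all genes. In the deposited signals Tbp joined it, 2 of 9 beside 13.1%, and after median scaling Actb did, 2 of 9 beside 17.7%. Only 237 of the 10264 genes, 2.31%, stayed within 0.5 under all 3 scalings, and Eef2 was 1 of them. No reference gene went uncalled under all 3 scalings, beside 1510 of the 10264 genes. Most of all genes were thus also called under at least 1 scaling.

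**Figure D1:**
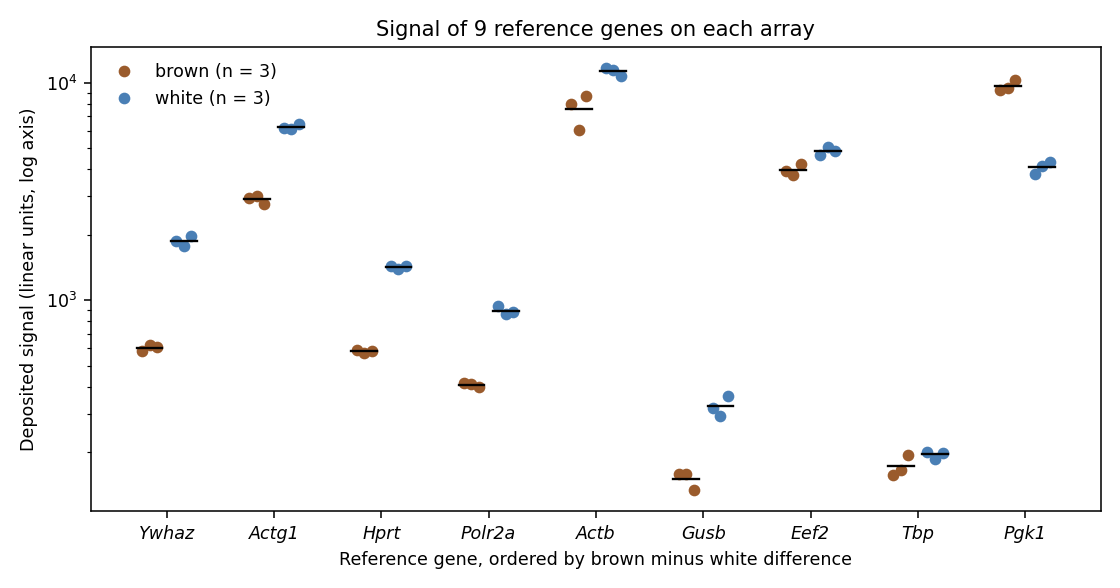
Deposited signal (linear units on a log axis) of the 9 reference genes on each of the 6 arrays, brown and white points being arrays and bars the tissue means; heights of different genes are not comparable, since each probe set has its own brightness. The brown and white points lie apart for 8 genes and overlap for Tbp.

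The actins form the filaments of the cytoskeleton, and Actb encodes the beta form, a widely used reference transcript. Its brightest probe set (1436722_a_at) had deposited signals of 7999.1, 6030.4 and 8708.0 on the brown arrays and 11630.6, 11488.5 and 10778.7 on the white ones. Every white array lay above every brown array, and brown replicate 2 was the lowest of all. The quantile-scaled means were 7341 ± 1316 (SD, n = 3) in brown and 11437 ± 599 in white, a difference of -0.66 (-0.91 to -0.40, adjusted p = 0.000594). In the deposited signals the difference was -0.59 (-0.85 to -0.34, adjusted p = 0.000934). Median scaling brought it to -0.15 (-0.39 to 0.10, adjusted p = 0.268), with overlapping arrays, so the call for Actb ended with that choice.

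The other Actb probe set (1419734_at) did not follow the first. It read 853.1, 1157.3 and 1071.2 in brown and 771.1, 1131.1 and 1787.3 in white, with overlapping arrays and a difference of 0.11 (-0.46 to 0.69, adjusted p over probe sets = 0.731). With the mean of both probe sets in place of the brightest, Actb was no longer called (difference -0.27, adjusted p = 0.0801). Without brown replicate 2 the brightest probe set still differed by -0.50 (-0.62 to -0.39, adjusted p = 2.1e-05).

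The array also carries quality controls for actin mRNA, which read it near its 5′ end, in the middle and near its 3′ end. The 3′ control read 5027.8, 4546.8 and 5334.1 on the brown arrays and 10195.3, 9841.3 and 9084.3 on the white ones, again with no overlap. The 5′ control read 3527.7, 2029.2 and 3936.1 in brown and 8602.7, 7048.0 and 5243.8 in white. The ratio of 3′ to 5′, which rises as RNA is degraded or copied in part, was 1.43, 2.24 and 1.36 in brown and 1.19, 1.40 and 1.73 in white. Brown replicate 2 thus had the highest ratio as well as the lowest Actb signal, and the part of RNA quality in the Actb difference was not tested.

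Actg1 encodes gamma actin, the other cytoplasmic actin. Its probe set (1415779_s_at) read 2948.4, 3010.9 and 2770.2 in brown and 6174.9, 6114.8 and 6483.0 in white. White was higher on every array, by a factor of 2.19 after quantile scaling. The difference was -1.13 (-1.25 to -1.01, adjusted p = 6.4e-08), and it was -1.11 in the deposited signals and -0.66 (-0.79 to -0.53) after median scaling. Unlike that of Actb, the call for Actg1 held under all 3 scalings.

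Ywhaz encodes the zeta member of the 14-3-3 proteins, adaptors that bind phosphorylated partners. Its brightest probe set (1436971_x_at) read 583.2, 621.1 and 611.3 in brown and 1874.0, 1779.0 and 1977.8 in white. After quantile scaling the means were 691 ± 20.1 (SD, n = 3) and 1730.2 ± 66.3, a difference of -1.32 (-1.47 to -1.18, adjusted p = 8.56e-08). It was -1.63 in the deposited signals and -1.19 after median scaling. No other reference gene was lower in brown by as much under any of these 3 scalings.

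Ywhaz is also read by the most probe sets, 7, of which 5 were called higher in white after quantile scaling. The remaining 2 were 1416103_at at 0.02 (-0.33 to 0.37), which was called marginal on brown replicates 2 and 3, and 1436981_a_at at -0.30 (-0.69 to 0.10). All 7 were called higher in white in the deposited signals and 5 after median scaling. The 5 called after quantile scaling ranged from -0.61 to -1.32, so the size of the Ywhaz difference depended on the probe set.

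Hprt encodes the enzyme that returns hypoxanthine and guanine to the nucleotide pool. Its probe set (1448736_a_at) read 591.9, 572.6 and 585.7 in brown and 1439.0, 1387.6 and 1434.0 in white. The arrays of each tissue lay close together and the tissues lay far apart. The quantile-scaled means were 667 ± 12.9 (SD, n = 3) and 1300.4 ± 24.3, a difference of -0.96 (-1.11 to -0.82, adjusted p = 7.53e-07), with -1.28 in the deposited signals and -0.84 after median scaling.

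Gusb encodes beta-glucuronidase, a lysosomal enzyme that trims glycosaminoglycans. Its brighter probe set (1448124_at) read 159.2, 158.7 and 133.7 in brown and 318.8, 293.8 and 363.4 in white, with no overlap. The difference was -0.59 (-0.88 to -0.30, adjusted p = 0.00302) after quantile scaling, -1.11 in the deposited signals and -0.67 after median scaling. The dimmer probe set (1430332_a_at) pointed the same way, at -0.92, -1.41 and -0.97 under the 3 scalings.

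Polr2a encodes the largest subunit of RNA polymerase II, the enzyme that transcribes messenger RNA. Its tested probe set (1426242_at) read 415.8, 412.1 and 399.2 in brown and 937.2, 862.2 and 884.8 in white, and every white array was above every brown one. The difference was -0.73 (-0.91 to -0.56, adjusted p = 2.26e-05) after quantile scaling, -1.13 in the deposited signals and -0.68 after median scaling. Another Polr2a probe set (1422311_a_at) was called absent on all 6 arrays and was not tested.

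Tbp encodes the TATA-binding protein, which places general transcription factors at promoters. Its tested probe set (1426469_a_at) read 156.6, 166.2 and 193.5 in brown and 200.5, 186.9 and 198.6 in white. As deposited, brown replicate 3 lay among the white arrays, and the difference was -0.19 (-0.47 to 0.10, adjusted p = 0.209). After quantile scaling the order turned, with 207 ± 19.0 (SD, n = 3) in brown and 162 ± 5.08 in white, no overlap and a difference of 0.35 (0.08 to 0.62, adjusted p = 0.0299). Median scaling gave 0.26 (-0.02 to 0.53, adjusted p = 0.0949).

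The call for Tbp also rested on single arrays. Without brown replicate 3 the difference fell to 0.28 (adjusted p = 0.0992). It stayed near the 0.35 of all arrays without white replicate 2 (0.33, adjusted p = 0.081) and without white replicate 3 (0.35, adjusted p = 0.0675). Over all settings tried the adjusted p of Tbp ran from 0.0168 to 0.362. The other Tbp probe set (1426470_at) was called absent on every array.

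Eef2 encodes elongation factor 2, which moves the ribosome along the messenger RNA. Its tested probe set (1424736_at) read 3938.9, 3783.4 and 4220.9 in brown and 4644.3, 5068.8 and 4864.6 in white. The tissues did not overlap but were near each other. The difference was -0.36 (-0.47 to -0.25, adjusted p = 0.000147) after quantile scaling and -0.29 (-0.42 to -0.15, adjusted p = 0.00172) in the deposited signals. Median scaling turned it to 0.16 (0.04 to 0.28, adjusted p = 0.0286), so Eef2 was called under all 3 scalings with a direction that changed. After quantile scaling the interval passed 0.5 by a little without brown replicate 1 (to -0.50), without brown replicate 3 (to -0.51) or without white replicate 3 (to -0.51). Its other probe set (1440784_at) was absent or marginal on all arrays.

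Pgk1 encodes phosphoglycerate kinase, the first enzyme of glycolysis to yield ATP. Its brightest probe set (1438640_x_at) read 9275.9, 9472.9 and 10306.4 in brown and 3798.2, 4153.4 and 4323.4 in white. Brown was higher on every array. The quantile-scaled means were 9438 ± 327 (SD, n = 3) and 4217 ± 179.6, a difference of 1.16 (1.06 to 1.27, adjusted p = 2.43e-08), with 1.24 in the deposited signals and 1.69 after median scaling. The dimmer probe sets gave larger differences, 2.34 for 1417864_at and 2.12 for 1439435_x_at after quantile scaling. Pgk1 was thus the reference gene with the clearest direction towards brown, whichever probe set or scaling was used.

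**Figure D2:**
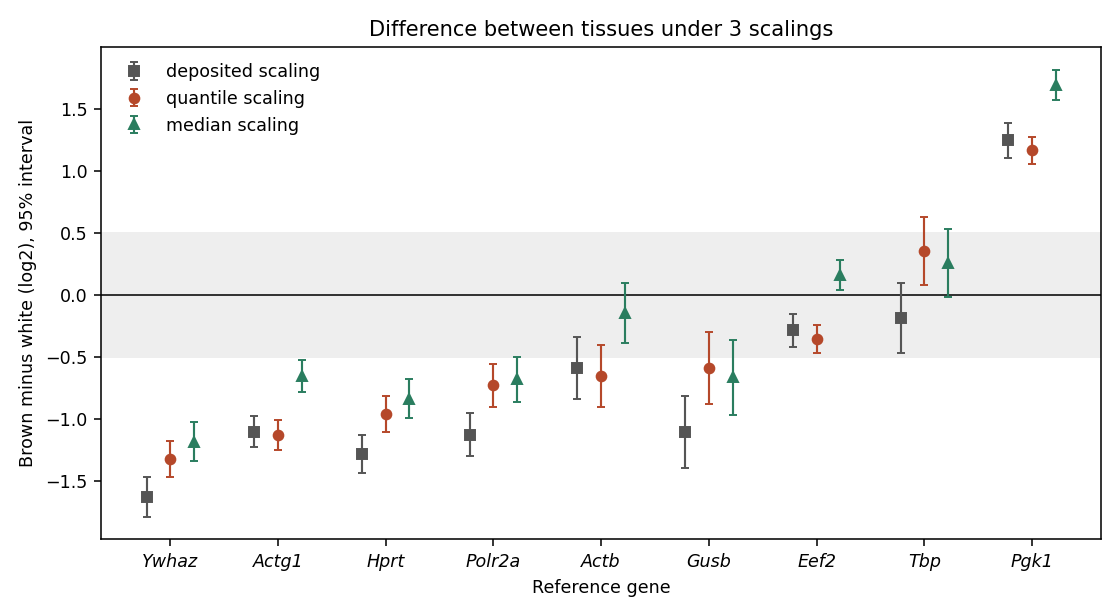
Brown minus white difference (log2) of each reference gene with its 95% interval from limma (n = 3 arrays per tissue) in the deposited signals and after quantile and median scaling; the grey band marks 0.5 in each direction. Only Eef2 stays inside the band under all 3 scalings. Its difference changes sign after median scaling, and none of its intervals holds 0.

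Over all probe sets of the reference genes, 4 were called higher in brown after quantile scaling, 12 higher in white and 3 in neither direction, beside 54.5% of all tested probe sets called. The 3 uncalled ones belong to Actb and Ywhaz, the genes whose probe sets disagreed. Probe sets with the suffix _x_at or _s_at, such as those that stand for Pgk1, Ywhaz and Actg1, can read more than 1 transcript. With such probe sets left out Actg1 had none, and all 8 remaining genes were called, beside 60.5% of all genes in that setting.

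**Figure D3:**
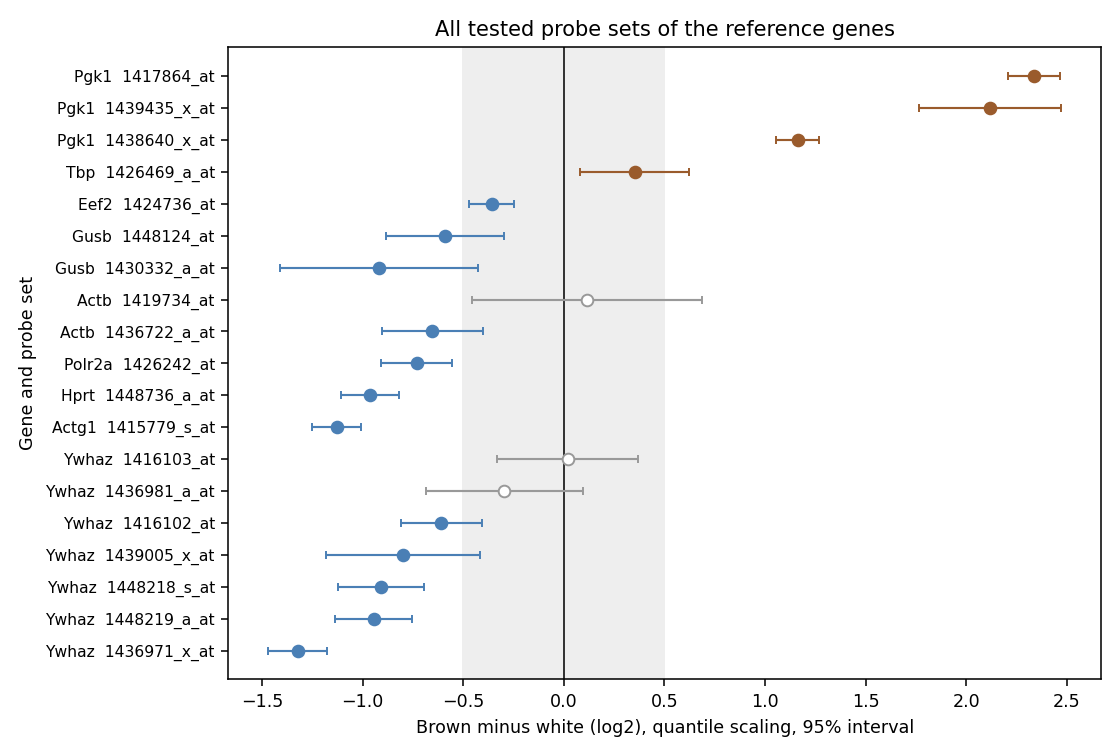
Brown minus white difference (log2, quantile scaling) of the 19 tested probe sets of the reference genes with the 95% interval (n = 3 arrays per tissue); brown points were called higher in brown, blue points higher in white, open points in neither direction, and the grey band marks 0.5. Pgk1 has 3 probe sets above 1, and those of Ywhaz spread from 0.02 to -1.32.

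Across 5 scalings, with the spike-in controls and the median over tested probe sets added, 6 genes were called in the same direction each time. Actg1, Hprt, Gusb, Ywhaz and Polr2a were higher in white and Pgk1 was higher in brown. How many of all genes did so was not counted, so the 6 are not set against a background. Each single scaling called 60.5% to 71.1% of all genes. Actb leaned to white under all 5 and was called under 3. Tbp and Eef2 changed direction. The median over tested probe sets gave 8 called genes, beside 61.3% of all genes, and spike-in scaling 8, beside 65.5%. Under spike-in scaling the interval of Eef2 reached -0.50 and just passed the bound, so that no reference gene was stable there.

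The shift made by quantile scaling differed with brightness. Quantile scaling moved the difference of the median gene up by 0.48 relative to the deposited signals, but that of the 1027 brightest genes by 0.19. Actb, Actg1, Eef2 and Pgk1 differed little between these 2 scalings, whereas Hprt, Gusb, Ywhaz, Polr2a and Tbp moved up by 0.31 to 0.54.

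The arrays of 1 tissue varied little at these genes. The SD of the quantile-scaled log2 signal within a tissue was 0.068 in brown and 0.056 in white for the median reference gene, against 0.154 and 0.128 for the median of all genes. It was below the median of all genes for 7 of the 9 in brown and 8 of the 9 in white. Those above it in brown were Actb, at 0.275, and Gusb, at 0.166, and Gusb was also above it in white, at 0.14. The reference genes and all genes were not matched for brightness in this comparison. A small spread within a tissue did not go with a small difference between tissues, since Hprt, Ywhaz and Pgk1 were among the 4 with the smallest SD in brown. By the size of the difference after quantile scaling, Ywhaz exceeded 83.2% of all genes, Pgk1 79.5%, Actg1 78.5% and Hprt 72.9%, and Eef2 and Tbp exceeded 35.8% and 35.2%.

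Differences between 2 reference genes on the same array do not depend on deposited, median or spike-in scaling, which cancel. They show unequal change and never that either gene is constant. Of the 36 pairs of the 9 genes, 30 had no overlap between the tissues, beside 68.6% of all pairs of genes tested. A change of 1 or more on the log2 scale was seen in 12 of the 36 pairs, beside 44.3% of all pairs, and a change of less than 0.5 in 10, beside 31.0%. With 3 arrays against 3 the exact permutation test (two-sided) cannot go below p = 0.1, so none could pass 0.05, and the smallest p after adjustment over the 36 pairs was 0.12.

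In the deposited signals Actg1, Gusb and Polr2a kept nearly the same proportion to each other in both tissues. The log2 ratio of Actg1 to Gusb changed by 0.006 from white to brown, with an SD of 0.085 in brown and 0.111 in white. That of Gusb to Polr2a changed by 0.018 and that of Actg1 to Polr2a by 0.023. These genes were all higher in white by a similar amount, so a steady ratio here went with a difference shared by all 3. Quantile scaling does not cancel in a ratio, and after it the ratio of Actg1 to Gusb changed by -0.54 and that of Actg1 to Polr2a by -0.40. The ratio of Tbp to Eef2 changed by 0.10 as deposited, also with overlapping arrays, and by 0.71 after quantile scaling. At the other end, the ratio of Pgk1 to Ywhaz was higher in brown by 2.88, at 3.99, 3.93 and 4.08 in brown and 1.02, 1.22 and 1.13 in white. The actins did not hold together either, the ratio of Actb to Actg1 being higher in brown by 0.51.

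Averaged over its 8 pairs, the SD of the log2 ratio over all 6 arrays was lowest for Actg1 (0.397) and Polr2a (0.401), and it rose over Gusb (0.426), Hprt (0.44), Actb (0.456), Eef2 (0.486), Tbp (0.523) and Ywhaz (0.601) to Pgk1 (1.19). This ranking by steady ratios, as used to choose reference genes, therefore put Actg1 first, a gene lower in brown under every scaling, and Eef2 in the sixth place. The measure rewards genes that differ together. In the deposited signals, from which these ratios were taken, 7 of the 9 were called higher in white. How far this set the order was not tested.

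The direction of the adipocyte genes Pparg and Adipoq depended on which reference gene was subtracted. Pparg, the master transcription factor of fat cells, differed by -0.13 in the deposited signals, with overlapping arrays. Relative to Ywhaz it was higher in brown by 1.50, and relative to Hprt, Polr2a, Gusb and Actg1 by 1.15, 0.999, 0.98 and 0.98. Relative to Actb it was higher in brown by 0.46, with no overlap, and relative to Pgk1 it was lower in brown, at -1.37. Relative to Tbp and Eef2 it stayed near 0, at 0.06 and 0.16, with overlapping arrays.

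Adipoq, which encodes the hormone adiponectin, also changed direction with the reference gene. It differed by -0.41 in the deposited signals, by 1.22 relative to Ywhaz and by -1.66 relative to Pgk1. Relative to Actb it differed by 0.18 and relative to Eef2 by -0.12, both with overlapping arrays. Unlike Pparg, it did not overlap relative to Tbp, at -0.22. Over all genes tested, 88.1% lay above Ywhaz in their deposited difference and 4.15% above Pgk1. The median gene differed by 1.13 relative to Ywhaz, 0.10 relative to Actb, -0.21 relative to Eef2, -0.31 relative to Tbp and -1.74 relative to Pgk1.

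**Figure D4:**
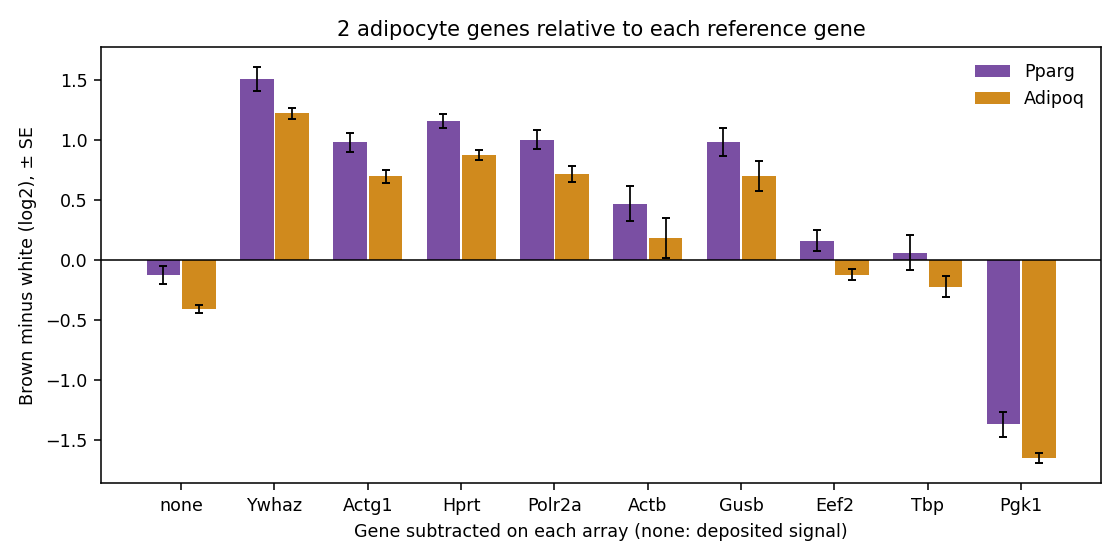
Brown minus white difference (log2, deposited signals) of Pparg and Adipoq before and after each reference gene's log2 signal is subtracted on the same array; bars are differences of tissue means and error bars their standard error (n = 3 arrays per tissue). Pparg runs from 1.50 relative to Ywhaz to -1.37 relative to Pgk1.

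Each reference gene was then set among the genes of its own system, from lists chosen by function. The counts of each list stand beside those of all 10264 genes. Of these, 2895 were higher in brown and 3361 in white after quantile scaling. The counts were 1535 and 5760 as deposited, and 2853 and 3360 after median scaling. The actins tested were 4. White was the higher tissue for 3 of them and brown for 0, and the median difference was -1.33. Acta2, the smooth muscle actin, differed by -1.53, and Acta1, the skeletal muscle actin, was not called at -2.51 (-5.35 to 0.33). Of 16 tested partners that assemble, cap or cut actin filaments, 11 were higher in white, 0 in brown and 5 in neither, with a median of -0.69. Tmsb10, a thymosin that binds free actin, differed by -2.67 and Gsn, the severing protein gelsolin, by -1.63, whereas the Arp2/3 subunit Actr3 was not called at -0.09. White was higher for 14 of the 16 and brown for 0 as deposited, and for 10 and 2 after median scaling. A lean to white was thus also seen in partners of Actb and Actg1. Whether it exceeded that of all genes was not tested.

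The 14-3-3 proteins showed a like pattern. Of 6 tested, 5 had more signal in white and 0 in brown, with a median of -0.79. Ywhab differed by -0.98 and Ywhah by -0.93, and Ywhag was not called at -0.08 (-0.20 to 0.03). After median scaling white was the higher tissue for 4 and brown for 1, Ywhag.

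The lysosomal glycosidases, the company of Gusb, held 7 genes higher in white, 1 in brown and 5 in neither among 13 tested, with a median of -0.46. Man2b1, an alpha-mannosidase, differed by -1.53 and Naglu, which degrades heparan sulphate, by -1.06. Galc, which removes galactose from ceramides, went the other way at 1.11. Gaa, the acid alpha-glucosidase, was not called at 0.08, and it was absent or marginal on the brown arrays.

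Glycolysis leaned to brown. All 8 tested enzymes of its lower part, Pgk1 among them, were higher in brown, with a median of 0.87. Ldhb, a lactate dehydrogenase subunit, differed by 3.41 and Pkm, the pyruvate kinase, by 2.09. With deposited signals and with median scaling, 7 of the 8 passed the test towards brown and 0 towards white, and Eno3 was uncalled.

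Among the RNA polymerase II subunits, Polr2a differed in direction from the other called ones after quantile scaling. Of 11 tested subunits, brown was the higher tissue for 7 and white for 1, and that 1 was Polr2a. Polr2i differed by 0.94 and Polr2m, a protein associated with the polymerase, by 0.92, whereas Polr2b, which forms the active centre with Polr2a, was not called at 0.23 (-0.02 to 0.49). As deposited, brown was higher for 5 and white for 2, Polr2a and Polr2h (-0.34). Whether Polr2a is particular among the subunits was not tested.

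Tbp sat in a mixed family. Of 14 tested genes for the TATA-binding protein and the TFIID subunits it works with, 5 were higher in brown, 1 in white and 8 in neither, with a median of 0.11. Taf12 differed by 0.75, Taf13 by 0.69 and Taf9b by -0.74, and Taf2 was not called at 0.01. As deposited, the balance turned to 1 in brown and 6 in white, as it did for Tbp itself.

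The purine genes around Hprt were spread to either side. Among 17 tested, brown was the higher tissue for 7, white for 5 and neither for 5, with a median of 0.19. The balance turned in the deposited signals, to 5 for brown and 7 for white, with a median of -0.23. Impdh1, which makes guanine nucleotides from inosinate, differed by 2.40 and Gmps, the next enzyme of that path, by 1.67. Dck, which phosphorylates deoxynucleosides, differed by -1.96. Prps2, which makes the ribose donor of purine synthesis and salvage, was called absent on all brown arrays and read 78.9 ± 10.9 (SD, n = 3) in brown and 200.1 ± 93.7 in white after quantile scaling. Aprt, the salvage enzyme for adenine, was not called at -0.09 (-0.31 to 0.12).

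The elongation factors and diphthamide enzymes that act with Eef2 or modify it held 3 genes higher in brown, 4 in white and 2 in neither among 9 tested, with a median of -0.17. Eef2k, the kinase that switches Eef2 off, differed by -1.81, and Eif5a by -0.40. Dph3 and Dph5, which help to build the diphthamide residue of Eef2, differed by 1.31 and 0.62. Eef1b2 was not called at -0.17. The balance depended on the scaling, with 1 higher in brown and 6 in white as deposited and 5 and 1 after median scaling.

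The cyclophilins, the family of Ppia, held 2 genes higher in brown, 3 in white and 7 in neither among 12 tested, with a median of 0.02. With the deposited signals these counts were 2, 7 and 3, and the median was -0.47. Ppif, the mitochondrial cyclophilin, differed by 2.14 and Ppil1, a spliceosomal one, by 0.91. Ppif was called marginal or absent on the white arrays, so it entered the test through the brown arrays alone. Ppic differed by -1.33 and Nktr by -0.34. Ppib, the cyclophilin of the endoplasmic reticulum, was not called at -0.22 (-0.63 to 0.18).

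**Figure D5:**
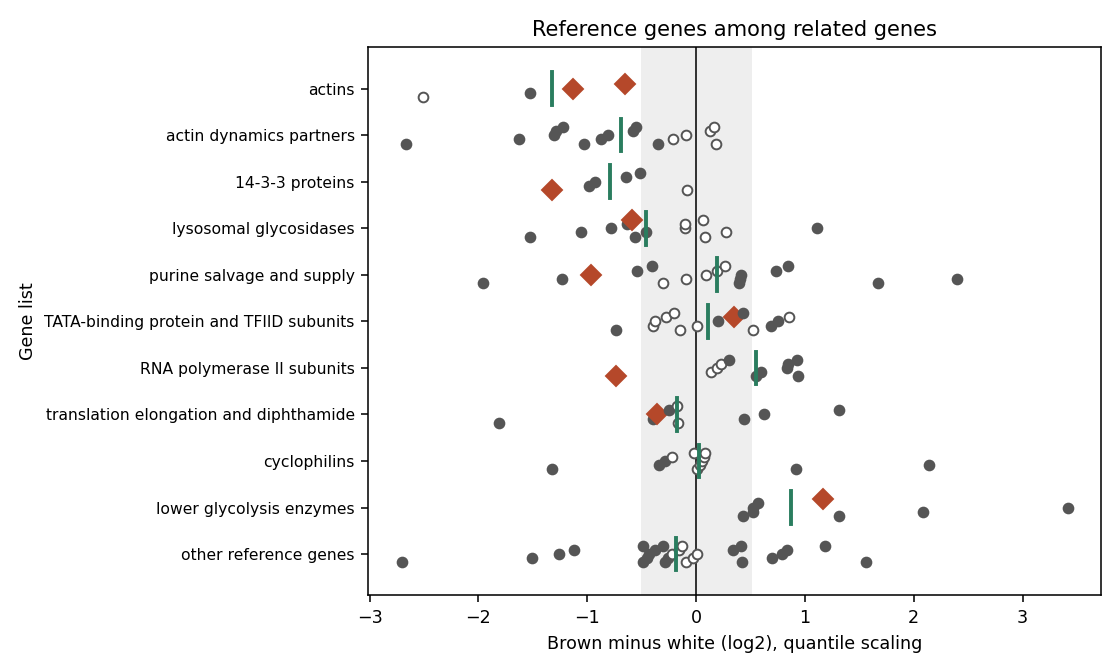
Brown minus white difference (log2, quantile scaling, n = 3 arrays per tissue) of each gene in the lists of related genes; filled points were called, open points were not, red diamonds are the 9 reference genes, green bars are list medians and the grey band marks 0.5. Polr2a lies to the left of all other polymerase II subunits, and all lower glycolysis enzymes lie to the right of 0.

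Of 26 other genes used as references elsewhere, 8 were higher in brown, 12 in white and 6 in neither after quantile scaling, with a median of -0.19. Beside them, 61% of all genes were called in either direction. The 6 uncalled genes were Ipo8 (0.01), Chmp2a (-0.02), Rer1 (-0.09), Vps29 (-0.13), Vcp (-0.16) and Ppib (-0.22). Rer1 was called absent on all brown arrays. The intervals of Rpl13a (-0.37), Alas1 (-0.30), Canx (-0.29), Rab7 (-0.26) and Psmb2 (0.34) also lay within 0.5, although these genes were called. Under all 3 scalings 2 of the 26 stayed within 0.5, namely Rpl13a, a ribosomal protein gene, and Vcp, a segregase that feeds the proteasome. Ppib was the only 1 of the 26 called under none of the 3. Its interval lay within 0.5 after median scaling. It passed that bound after quantile scaling (-0.63 to 0.18) and in the deposited signals. The median of the list moved to -0.41 in the deposited signals, with 4 higher in brown and 17 in white, and to 0.04 after median scaling, with 9 and 4.

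Markers of other cell types moved with the tissue as well. All 12 macrophage markers were higher in white, with a summed quantile-scaled signal of 3103 to 3690.0 in brown and 19511 to 20358 in white, and 2 of them were absent on all brown arrays. All 9 mesothelial markers were higher in white (302 to 346 against 3778 to 3904), and 6 of them were absent on all brown arrays. The summed fibroblast markers read 10017 to 10712 in brown and 39044 to 40093 in white, the endothelial ones 2512 to 2736 and 3575 to 3731, and the smooth muscle ones 1101 to 1273 and 2864 to 3006. Of the 4 smooth muscle markers tested, 3 were higher in white and 1, Des, in brown, where alone it was called present. The 8 skeletal muscle markers summed to 1298 to 1608 in brown and 595 to 684 in white, and only 2 were tested. Myl1, which carried most of that sum in brown, was higher in brown by 1.74, and Acta1 was not called after quantile scaling but was called higher in white in the deposited signals (-2.98, adjusted p = 0.0472). Of the 8 endothelial markers tested, 5 were called higher in white after quantile scaling, and Kdr, Tek and Emcn in neither direction. All 8 were called higher in white in the deposited signals. Apart from the skeletal muscle list, the summed signals of these lists moved with the 7 reference genes that were higher in white. The part of these cell types in those differences was not tested. In whole tissue, fewer cells of a type and less RNA per cell cannot be told apart.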

How the data were processed

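Per the file headers, the authors deposited for each of the 6 Affymetrix mouse arrays a linear signal intensity, a detection call and its p-value per probe set. What software and scaling lie behind the intensity is not stated in any source used here. A deposited table of the whole series runs opposite to the array files in tissue and was not used here, so the directions of the tissue markers are not independent evidence.

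Of 45101 probe sets, 64 controls were left out of the tests. Of the other 45037, the platform annotation gives 34945 1 gene symbol, 932 several and 9160 none, and only those with 1 symbol were named. The 1 intensity of 0 was set to 0.1, and log2 values were quantile-normalised over all arrays. Probe sets called present on at least 3 arrays (19819) entered the test, made with limma (version 3.58.1, under R 4.3.3) by lmFit and eBayes with a trend, two-sided. Median scaling centred each array on its median over all probe sets. The SD covers spread between samples of 3 mice, and the number of arrays limits the precision. The fit was tested on simulated data.

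The reference genes, the related gene lists, the marker lists and the rule for names were chosen with earlier results of these data known. The rule names every reference gene, from each list up to 2 called genes of largest difference in either direction and the brightest uncalled gene, and from the other reference genes those uncalled or with an interval within 0.5. The alternatives were other scalings, filters, the probe set of a gene, 64 signal units added, no trend, the replicate number as a block and each array left out.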

Additional observations from a re-analysis of the deposited data

How the results depend on the processing

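The count of called reference genes was 7 to 9 under every alternative tried, and it could not rise above the main count of 9. Under the 5 scalings 60.5% to 71.1% of all genes were called. With probe sets ending in _x_at or _s_at left out the count was 8 of 8 tested. With no detection filter it was 9, beside 3387 genes higher in brown and 3500 in white among 18193. With the replicate number as a block it was 8, Tbp being lost (adjusted p = 0.0564), and the block changed no other call among the 9. The numbers are not stated to mark mice, and same-numbered brown and white arrays did not deviate together (correlations 0.02, -0.01 and -0.05). The count of genes with the interval within 0.5 was 1 with quantile scaling, 2 with deposited signals, with median scaling over all probe sets, over tested probe sets (chosen after seeing the data) or with 64 signal units added, and 0 with spike-in scaling or without the trend. Beside these, the share of all genes was 18.0%, 13.1%, 17.7%, 17.8%, 39.1%, 8.54% and 16.9%, in that order. The count ran from 0 to 1 with each array left out (0 without brown replicate 1, brown replicate 3 or white replicate 3), beside 14.9% to 16.8% of all genes, and it was 5 with a bound of 1, beside 55.6%. Tbp turned to -0.19 with deposited and with spike-in scaling. Eef2 turned to 0.16 with median scaling and 0.30 with the median over tested probe sets. Actb 1419734_at turned to -0.19 with deposited and spike-in scaling and ran from -0.20 to 0.44 with each array left out. Ywhaz 1416103_at turned to -0.52 with deposited and spike-in scaling and to -0.076 with median scaling, and ran from -0.10 to 0.11 with each array left out. The cause was not tested. Of 302 differences of probe sets under the alternatives, 278 kept their direction and side of the threshold, 12 turned, 9 lost and 3 gained the call. Quantile scaling moved the difference of a pair by more than its spread for some pairs, the largest change remaining that of Pgk1 to Ywhaz (2.49 in place of 2.88). Ywhaz 1416103_at was called marginal on brown replicates 2 and 3, although its deposited signals, 126.6 to 231.3, lay above the median signal of every array.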

Other observations

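The 6 other reference genes described here were chosen after their values were seen. The tubulins were lower in brown fat after quantile scaling, Tuba1a by -2.70 on the log2 scale (95% interval -2.89 to -2.52) and Tubb5 by -1.51 (-1.71 to -1.31). B2m, the light chain of MHC class I, differed by -1.26 (-1.39 to -1.12). The mitochondrial genes Cyc1, a subunit of complex III, and Sdha, a subunit of complex II, were higher in brown, by 1.56 (1.46 to 1.66) and 1.18 (1.07 to 1.29), and Atp5b, of the ATP synthase, by 0.79 (0.67 to 0.91). Each of these 6 genes was called in the same direction with the deposited signals and with median scaling.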
